A study of Mus musculus with 42 samples.

Results

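Nucleotide excision repair is the pathway that cuts bulky adducts out of DNA, and adduct bypass is the copying of a damaged template by specialised DNA polymerases. The 37 genes described here were picked by symbol for a part in one or the other, and all 37 had a probe on the array, 45 probes in all, out of 20668 named genes and 55681 probes. The question was how their baseline levels compare between lung, liver and forestomach, and whether the levels change with the dose of BkF (benzo(k)fluoranthene), one of the polycyclic aromatic hydrocarbons, whose metabolites bind DNA. Male Muta™Mouse animals, which all carry a lacZ reporter transgene, were about 11 weeks old and were gavaged daily with BkF in olive oil for 28 days. Tissues were taken 72 h after the last dose. Vehicle mice (D0) received olive oil alone, and daily doses per kg of body weight were 25 mg for D1, 50 mg for D2 and 100 mg for D3. RNA of 15 mice gave 42 arrays, with 4, 3, 4 and 4 lungs, 4, 2, 3 and 4 livers, and 4, 3, 4 and 3 forestomachs at D0 to D3. Each array carried the tissue RNA in Cy5 against a common reference RNA pooled from mouse cell lines in Cy3, and every level below is a log2 ratio of tissue to reference, so that a level of one gene cannot be set against that of another.

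In global repair, XPC with RAD23B and CETN2, helped by the DDB1-DDB2 complex, finds the distorted helix, while CSA (Ercc8) and CSB (Ercc6) act where an RNA polymerase has stalled. TFIIH then unwinds the DNA, XPA and RPA hold the open strands, and the nucleases ERCC1-XPF (Ercc4) and XPG (Ercc5) cut on either side of the lesion. The gap is filled by a DNA polymerase with the PCNA clamp and its RFC loader and sealed by a ligase; these last proteins also serve ordinary DNA replication. Adducts that persist can be copied by polymerases such as Polη (Polh), Polι (Poli) and REV1.

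The arrays of lung and forestomach shared 4 slides, with lung in one row and forestomach in another, while the livers were on 2 other slides that were scanned later and read with another version of the scanner software, so that for liver the tissue and the batch cannot be told apart. Summed levels of 15 proliferation markers, given as the mean log2 ratio of the list, ran from -3.43 to -2.67 in lung, from -3.35 to -2.59 in liver and from -2.70 to -1.48 in forestomach. Of these markers 4 were above background on no vehicle liver, against 1 in vehicle lung and 1 in vehicle forestomach. The liver score averages such dim probes in, so it is not compared with the other tissues. Each tissue's own marker list was highest in that tissue, at 5.70 to 6.81 in lung for lung markers and 7.24 to 8.13 in liver for liver markers, which were also at 0.49 to 4.24 in forestomach and at 0.53 to 1.32 in lung; their part in the comparisons with forestomach was not tested. Squamous markers ran from 2.46 to 3.78 in forestomach, against -0.24 or less in lung except for 3.00 in D2 mouse 12. Markers of glandular stomach were at 5.10 or more on 9 of the 14 forestomach arrays, 2 of the vehicle arrays (mice 2 and 3) among them, and at 1.70 or less on the other 5. Of the other arrays, lung of D1 mouse 7 had a glandular score of 4.00, lung of D2 mouse 12 a skeletal muscle score of 4.63 and liver of D3 mouse 17 a muscle score of 3.87. In whole tissue, fewer cells of a type and less RNA per cell cannot be told apart. Cyp1a1, a target of the aryl hydrocarbon receptor named here after its values were seen, was 112-fold higher in D3 than in vehicle lung (log2 change 6.81 ± 0.75 SE, limma adjusted p = 0.00341). In forestomach its log2 change at D3 was 3.24 ± 0.85, with a limma adjusted p of 1, and its probe was well above background on 1 of 4 vehicle arrays. In liver it was well above background on 0 of 4 vehicle and 4 of 4 D3 arrays.

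Between the vehicle groups, Lig1, Ercc1, Pcna and Rad23b had vehicle means that spanned 2.05, 1.84, 1.69 and 1.25 over the 3 tissues on the log2 scale. A gene was called where the adjusted p over all probes tested was at most 0.05 and the fold at least 1.5. By this rule 17 of the 37 genes differed between lung and liver, 10 higher and 7 lower in lung, where 40.8% of all probes tested were called, 23.4% higher and 17.4% lower. Between lung and forestomach 11 were called, 2 higher and 9 lower in lung, against 33.5% of all probes, 18.4% higher and 15.1% lower. Between liver and forestomach 7 were called by their main probes, all lower in liver, against 37.5% of all probes, 17% higher and 20.6% lower. That count was 11 without the forestomach arrays that hold glandular markers and 12 from the scanner software's own ratio. Over the 37 genes the median difference was 0.08 for lung minus liver, -0.14 for lung minus forestomach and -0.16 for liver minus forestomach, where the median of all probes was 0.019, 0.031 and -0.005. Many calls lay near the fold limit: for lung and liver, leaving out 1 vehicle array or another ended the call of Xpc, Cetn2, Gtf2h3, Gtf2h4, Ccnh, Rfc1 and Rfc3. No test of the group as a whole was made. Without a call in any pair were 16 genes, 8 had a call in 1 pair, 12 in 2 pairs and Ercc1 in all 3, where 36.7%, 14%, 38% and 11.3% of the 28383 probes tested in every pair were called in 0, 1, 2 and 3 pairs.

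**Figure D1:**
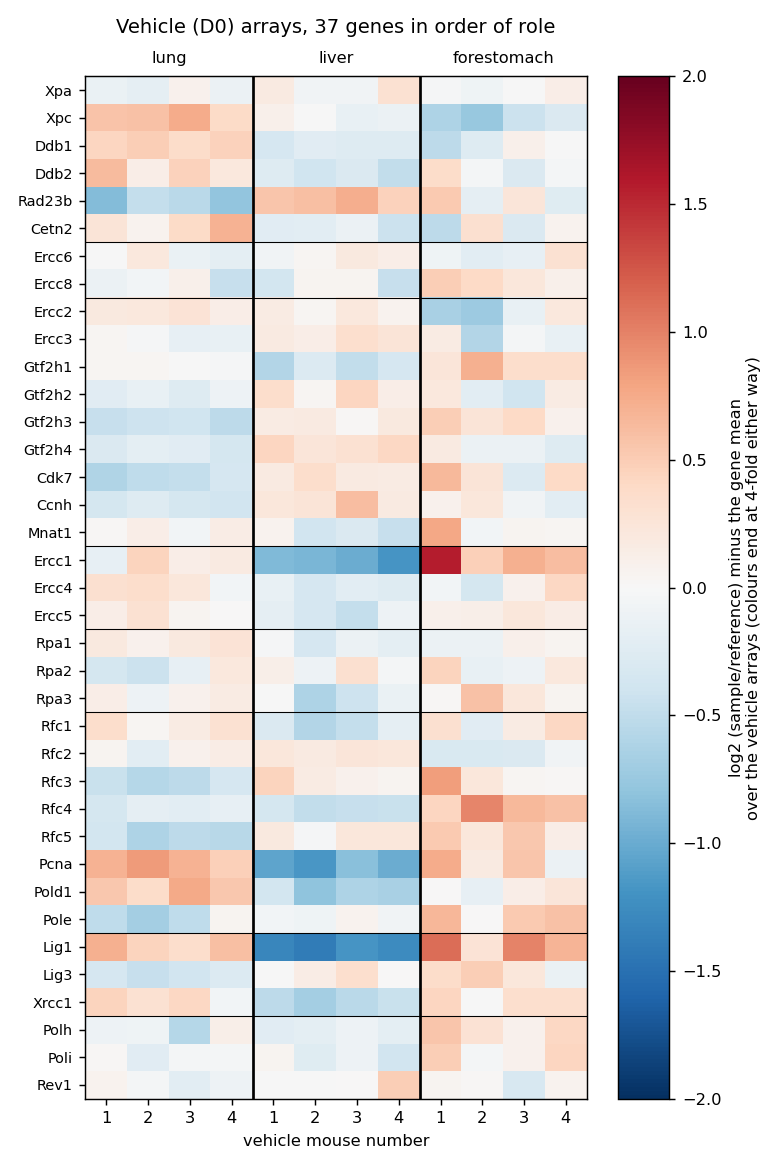
Log2 ratio of tissue to reference on the 12 vehicle arrays (columns, by mouse number and tissue) for the 37 genes (rows, in order of role, with lines between roles), each gene centred on its mean over these arrays; red is above and blue below that mean. Lig1, Pcna and Ercc1 were lowest in liver, with vehicle means of -3.94, -3.28 and -2.19.

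Among the genes of damage recognition, Xpc, the first sensor of global repair, was highest in lung. Its vehicle levels in mice 1 to 4 were 1.01, 1.03, 1.19 and 0.82 in lung, 0.54, 0.44, 0.29 and 0.33 in liver and -0.17, -0.32, 0.02 and 0.15 in forestomach, so that no 2 tissues overlapped. The lung level was higher than that of forestomach by 1.09 ± 0.14 (SE, 2.13-fold, limma adjusted p = 5.31e-08). It was higher than that of liver by 0.61 ± 0.14 (1.53-fold, limma adjusted p = 0.000259). Each tissue had n = 4 arrays from the same 4 mice, and the fit did not use this pairing. The call against liver rested on a fold near the limit: it was lost without the vehicle lung or the vehicle liver of mouse 3 (lowest difference 0.55) and with quantile normalisation (0.58), and the differences at D1, D2 and D3, of 0.39, 0.22 and 0.41, were not called. On the 3 slides that held a vehicle lung and a vehicle forestomach, the lung was higher by 1.34, 0.67 and 1.18. Ddb1 was likewise higher in lung than in liver, by 0.71 ± 0.14, and than in forestomach, by 0.61 ± 0.14; neither was called from the scanner software's ratio, and the second was 0.50 and not called without the forestomach of mouse 1. Ddb2, which binds the lesion in that complex, had vehicle levels of -0.34, -0.84, -0.52 and -0.77 in lung, -1.23, -1.38, -1.27 and -1.47 in liver and -0.61, -1.01, -1.26 and -1.01 in forestomach. Lung exceeded liver by 0.72 ± 0.16 (limma adjusted p = 0.000181) without overlap, a call lost with quantile normalisation (0.58), while the forestomach values lay across both and neither difference was called.

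Rad23b, the partner of XPC, ran the other way. Its vehicle levels were -1.13, -0.74, -0.79 and -1.05 in lung, 0.29, 0.34, 0.47 and 0.20 in liver and 0.26, -0.43, -0.01 and -0.50 in forestomach, and lung was 2.38-fold below liver (-1.25 ± 0.13, limma adjusted p = 1.73e-10). A second Rad23b probe gave -0.70 for lung minus liver, also called, but -0.10 for lung minus forestomach, where the main probe gave -0.76. For liver minus forestomach that second probe gave 0.59 and was called (limma adjusted p = 0.000107), where the main probe, at 0.49, was not. Xpa, the scaffold of the incision complex, had vehicle levels of 0.37, 0.32, 0.60 and 0.39 in lung, 0.68, 0.44, 0.43 and 0.81 in liver and 0.49, 0.42, 0.50 and 0.64 in forestomach, and the tissues overlapped. The 3 differences were between -0.17 and 0.08, with 95% intervals from -0.44 to 0.35, all within 1.5-fold. The second and dimmer Xpa probe gave larger values, with a called difference of -0.96 for lung minus liver and 0.60 for liver minus forestomach, and -0.36, not called, for lung minus forestomach, so the size of the differences and the calls depended on the probe while the signs were those of the main probe.

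The 2 genes of transcription-coupled repair, Ercc6 and Ercc8, were called in no pair by their main probes. Ercc6 vehicle means were -0.13, -0.03 and -0.15 in lung, liver and forestomach, but its probe was well above background on 12 of 15, 9 of 13 and 6 of 14 arrays. For Ercc8 the second probe was called lower in lung than in liver (-0.67) and than in forestomach (-0.61, limma adjusted p = 0.000148), where the main probe, at 0.05 and -0.43, was not, but the second probe was well above background on 5 of 15 lung, 9 of 13 liver and 0 of 14 forestomach arrays.

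Of the 9 TFIIH genes, 4 were called lower in lung than in liver, against 17.4% of all probes: Gtf2h3 (-0.60), Gtf2h4 (-0.61), Cdk7 (-0.70) and Ccnh (-0.66). Leaving out 1 vehicle array or another ended the call of Gtf2h3, Gtf2h4 and Ccnh. Gtf2h4 was not called at D2 or D3, and Ccnh was called at no dose. Gtf2h3 and Cdk7 were also lower in lung than in forestomach, by -0.76 and -0.74 on the log2 scale. The main Cdk7 probe was well above background on 11 of 14 forestomach arrays, that of vehicle mouse 1 not among them. Cdk7, with cyclin H and MNAT1 the kinase of TFIIH, had a second probe that was well above background on 4 of 15 lung, 0 of 13 liver and 1 of 14 forestomach arrays, so that it could not check these differences. Gtf2h1, a core subunit, was lower in liver than in forestomach (-0.84 ± 0.13, limma adjusted p = 1.52e-06). The helicase genes Ercc2 and Ercc3 were called in no pair, nor was Mnat1. Gtf2h2 was called by its second probe only, lower in lung than in liver (-0.80, against -0.42 by the main probe).

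Ercc1, which positions the XPF nuclease, was called in every pair, for lung and forestomach only with the forestomach of mouse 1. Vehicle levels were -1.36, -0.75, -1.06 and -1.02 in lung, -2.07, -2.11, -2.18 and -2.38 in liver and 0.37, -0.71, -0.48 and -0.57 in forestomach, rising in the order liver, lung, forestomach with no overlap between any of them. Liver was 3.58-fold below forestomach (-1.84 ± 0.19, limma adjusted p = 4.85e-10) and 2.21-fold below lung (lung minus liver 1.14 ± 0.19, limma adjusted p = 4.83e-06). Forestomach of mouse 1, at 0.37, stood above the other 3 at -0.71 to -0.48, and without that array the difference of lung and forestomach was -0.46, no longer called; Ddb1, Rfc3 and Lig3 lost their call in that pair too, so that 7 instead of 11 were called. Ercc4, the nuclease partner of ERCC1, Ercc5, the nuclease of the other side, and the RPA genes had called differences in no pair.

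Lig1, the ligase that seals replication and repair gaps, had the widest difference of the 37 genes. Vehicle levels were -1.94, -2.21, -2.31 and -2.06 in lung, -3.96, -4.06, -3.83 and -3.92 in liver and -1.54, -2.38, -1.67 and -1.98 in forestomach. Every liver lay below every array of the other tissues, by 3.51-fold against lung (1.81 ± 0.16, limma adjusted p = 1.21e-11) and by 4.14-fold against forestomach (-2.05 ± 0.16, limma adjusted p = 7.40e-13), while lung and forestomach overlapped. Pcna, the sliding clamp, followed the same order of liver below both others. Its vehicle levels were -1.57, -1.41, -1.57 and -1.79 in lung, -3.32, -3.43, -3.10 and -3.26 in liver and -1.52, -2.08, -1.71 and -2.38 in forestomach, and lung exceeded liver 3.23-fold (1.69 ± 0.16, limma adjusted p = 4.54e-11). Pold1, the catalytic subunit of polymerase δ, stood at -2.15, -2.33, -1.94 and -2.16 in lung, -3.06, -3.50, -3.31 and -3.34 in liver and -2.69, -2.86, -2.57 and -2.45 in forestomach. Lung exceeded liver by 1.15 ± 0.15 (limma adjusted p = 6.22e-08), and liver lay below forestomach by -0.66 ± 0.15 (limma adjusted p = 0.000474). Xrcc1, the scaffold of ligase III, was lower in liver than in lung (0.82 ± 0.11) and than in forestomach (-0.82 ± 0.11).

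Several genes of the clamp loader and polymerase ε had another order, with lung lowest or level with liver; of the loader, Rfc1 was instead higher in lung than in liver (0.60 ± 0.12, but 0.33 and not called with quantile normalisation, and not called from the scanner software's ratio) and Rfc2 was called in no pair. Rfc4 vehicle levels were -2.94, -2.77, -2.80 and -2.76 in lung, -2.94, -3.08, -3.06 and -3.04 in liver and -2.16, -1.62, -1.94 and -2.01 in forestomach, and forestomach exceeded lung 1.85-fold (lung minus forestomach -0.89 ± 0.15, limma adjusted p = 7.92e-06) and liver 2.14-fold. The second Rfc4 probe gave -1.04 and -0.68, both called. Rfc5 stood at -2.83, -3.09, -2.99 and -3.03 in lung, -2.27, -2.50, -2.24 and -2.24 in liver and -1.95, -2.24, -1.93 and -2.33 in forestomach, with lung below forestomach by -0.88 ± 0.16 and below liver by -0.68 ± 0.16. Pole, the catalytic subunit of polymerase ε, stood at -3.50, -3.66, -3.49 and -2.93, -3.04, -3.08, -2.91 and -3.06 and -2.33, -2.98, -2.47 and -2.40 in the same tissues, and lung and forestomach overlapped although the difference was called (-0.85 ± 0.19, limma adjusted p = 0.000451). Lig3 was lower in lung than in forestomach by -0.60 ± 0.12, and its second probe, also called, gave -0.69 but was well above background on 7 of 14 forestomach arrays. The main-probe call was lost without the vehicle lung of mouse 2, without the vehicle forestomach of mouse 1 or 2, and without the glandular arrays, where the difference was -0.48. The second probe was called between lung and liver too (-0.94), where the main probe, at -0.49, was not. Proliferation markers moved with part of this order: 13 of 14 tested were called lower in lung than in forestomach, with a median of -1.34. Of the 11 whose probes passed the filter on dim probes in liver as well, 10 were called lower in liver than in forestomach, with a median of -1.57. Between lung and liver the median of these 11 was 0.27, with Mki67 (1.44), Ccna2 (0.77) and Cdc20 (0.66) called higher in lung. The probes of Cdk1, Bub1 and Kif11 were well above background on 0, 1 and 1 of 13 livers. They are left out of the counts with liver but are part of the count for lung and forestomach. Their part in the levels of the repair genes was not tested.

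Promoter sequence from RefSeq (GRCm38.p6, 250 bases before to 50 after the start) was at hand for 30 of the 37 genes, and is shown for genes of this replication-linked group. The E2F words TTTCGCGC, TTTGGCGC, TTTCCCGC and TTTGCCGC, searched on both strands, were found in 3 of the 30, Lig1, Pold1 and Rfc3, and in 2.6% of 27025 genes with a promoter. CCAAT, on either strand, was in 15 of the 30, Pcna among them, and in 41.1% of all. The 30-base windows are printed on the strand of the gene, with every E2F word in capitals.
Lig1, chr7:13278841-13278870, plus strand: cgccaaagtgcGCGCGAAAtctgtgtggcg
Pold1, chr7:44548766-44548795, minus strand: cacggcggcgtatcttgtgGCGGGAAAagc
Rfc3, chr5:151651200-151651229, minus strand: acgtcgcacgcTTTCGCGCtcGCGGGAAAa
The Lig1 and Pold1 words read as the reverse complement, and both lie after the start, while the Rfc3 window holds a word in each direction. By vehicle means Rfc3 was lowest in lung (-0.66 ± 0.15 against liver) and highest in forestomach. Lig1 and Pold1 were lowest in liver, with Lig1 highest in forestomach and Pold1 in lung. The part of the word in these levels was not tested. A match in these windows is a description of the sequence only.

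The bypass polymerases were called in no pair. Polh, which copies past bulky lesions, had vehicle levels of -0.81, -0.78, -1.27 and -0.59 in lung, -0.93, -0.89, -0.80 and -0.90 in liver and -0.15, -0.41, -0.61 and -0.28 in forestomach. Forestomach lay above lung by 0.50, with a limma adjusted p of 0.00372 but a fold under 1.5. The Polh probe was well above background on 11 of 15 lung, 2 of 13 liver and 6 of 14 forestomach arrays, and on 0 of 4 vehicle livers, so its liver level is not compared. Poli vehicle means spanned 0.41 over the tissues. The Rev1 probe was well above background on 0 of 4 vehicle livers, so its levels are not compared.

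The dose groups are other animals. All 17 genes called between vehicle lung and liver had the same direction at D1, D2 and D3, and 12, 9 and 11 of them were called there; of the 15141 probes called between vehicle lung and liver, 86.4%, 86.2% and 86.9% were called again the same way at these doses. Of the 11 called between lung and forestomach, 8, 5 and 10 were called, where 69.6%, 69.7% and 75% of the 11232 probes called in that vehicle pair were; the signs were those of the vehicle mice, but Ddb1, at 0.61 there, differed by 0.14, 0.01 and 0.29 at D1, D2 and D3. All 7 called between liver and forestomach were called at every dose (Gtf2h1, Ercc1, Rfc4, Pcna, Pold1, Lig1 and Xrcc1), where 67.9% of the 12416 probes called in that vehicle pair were. Called in all 4 dose groups were 8 genes between lung and liver (Rad23b, Gtf2h3, Cdk7, Rfc1, Pcna, Pold1, Lig1 and Xrcc1) and 5 between lung and forestomach (Xpc, Rfc3, Rfc4, Rfc5 and Pole), that is 8 of the 17 and 5 of the 11 vehicle calls, where 77.6% and 53.2% of the probes called in the vehicle pair were called at all doses too. Called in the vehicle mice but at no dose were Xpc, Ddb1, Ccnh and Rfc5 for lung against liver and Ddb1 for lung against forestomach; the change of these differences from vehicle to D3 was called for none. Of all probes called between vehicle groups, 97.9% or more had the same direction at each dose and in each pair. The repeats carry the same slides, rows and batches as the vehicle arrays.

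**Figure D2:**
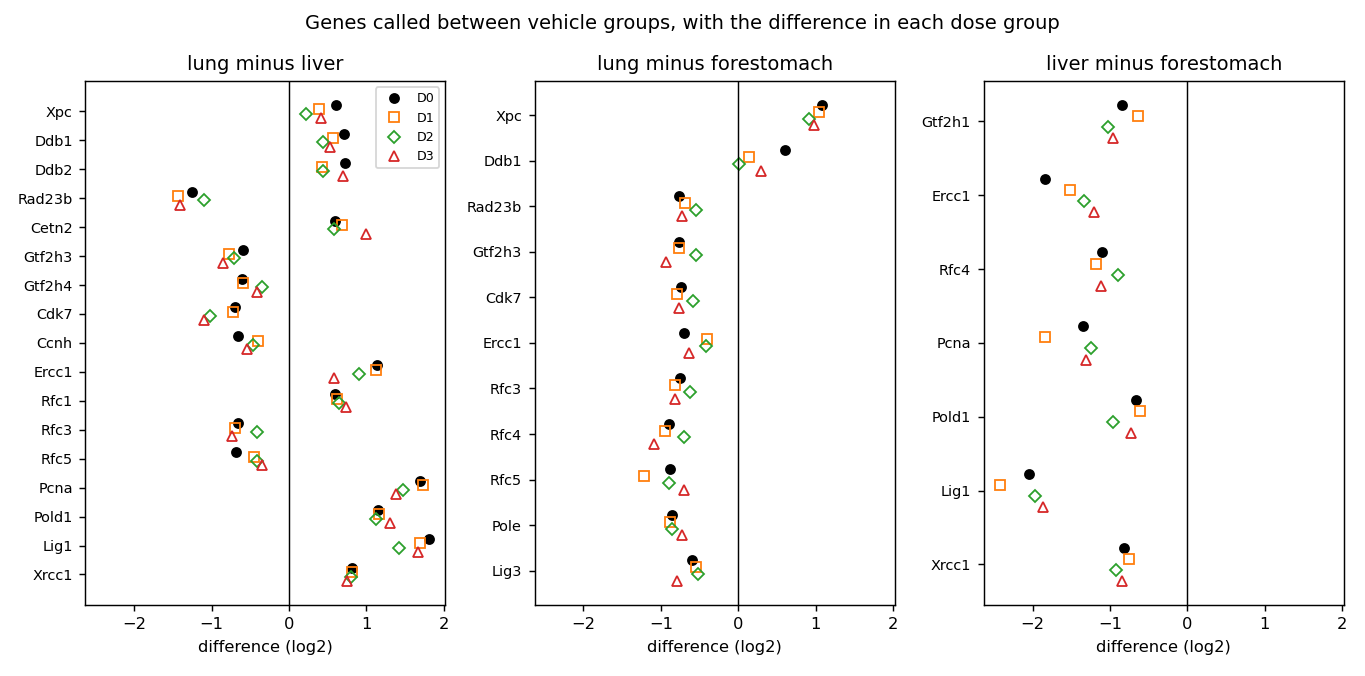
Difference between tissues in log2 ratio (horizontal axis) for each gene called between vehicle groups (rows), in the vehicle mice (D0, filled circles) and in the mice of D1 (squares), D2 (diamonds) and D3 (triangles). Lig1 for liver minus forestomach lay at -2.05 in the vehicle mice, and all 7 genes of that pair were called in each dose group.

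No gene of the group was called at any dose in any tissue. In lung, 0 of 37 were called at D1, D2 and D3, where 0%, 0.0153% and 0.0336% of all probes were called. In liver the count was 0 at each dose against 0%, 0.0427% and 0.0525% of all probes, and in forestomach 0 against 0% at each dose. In the trend over the dose, no gene was called in lung, liver or forestomach (0.0336%, 0% and 0% of all probes). At an unadjusted limma p under 0.05, lung had 0, 0 and 7 genes at D1, D2 and D3, against 1.76%, 4.25% and 8.02% of all probes. By the same measure liver had 0, 5 and 2 (1.53%, 10.7% and 7.8%), and forestomach had 3, 2 and 1 (12.1%, 7.59% and 2.2%).

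At D3 the 95% interval lay within 1.5-fold in both directions for 32 of 37 genes in lung, 35 in liver and 25 in forestomach, where 73.3%, 82% and 48% of all probes did. The 35 include Polh, whose probe was not well above background on any vehicle or D3 liver. They also include Rev1, whose probe was well above background on 0 of 4 vehicle and 2 of 4 D3 livers. The median change of the 37 at D3 was 0.03, 0.09 and 0.03 in lung, liver and forestomach, and that of all probes 0.0039, -0.005 and 0.0037. For the other genes the interval reached past 1.5-fold, so a change of that size lay within the interval. The change at D3 was compared between tissues by an interaction contrast, and no gene was called in any pair (0.027%, 0.0119% and 0.00605% of all probes). At an unadjusted limma p under 0.05 these contrasts held 1, 0 and 1 gene, Ercc1 both times, against 4.9%, 4.41% and 3.39% of all probes.

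**Figure D3:**
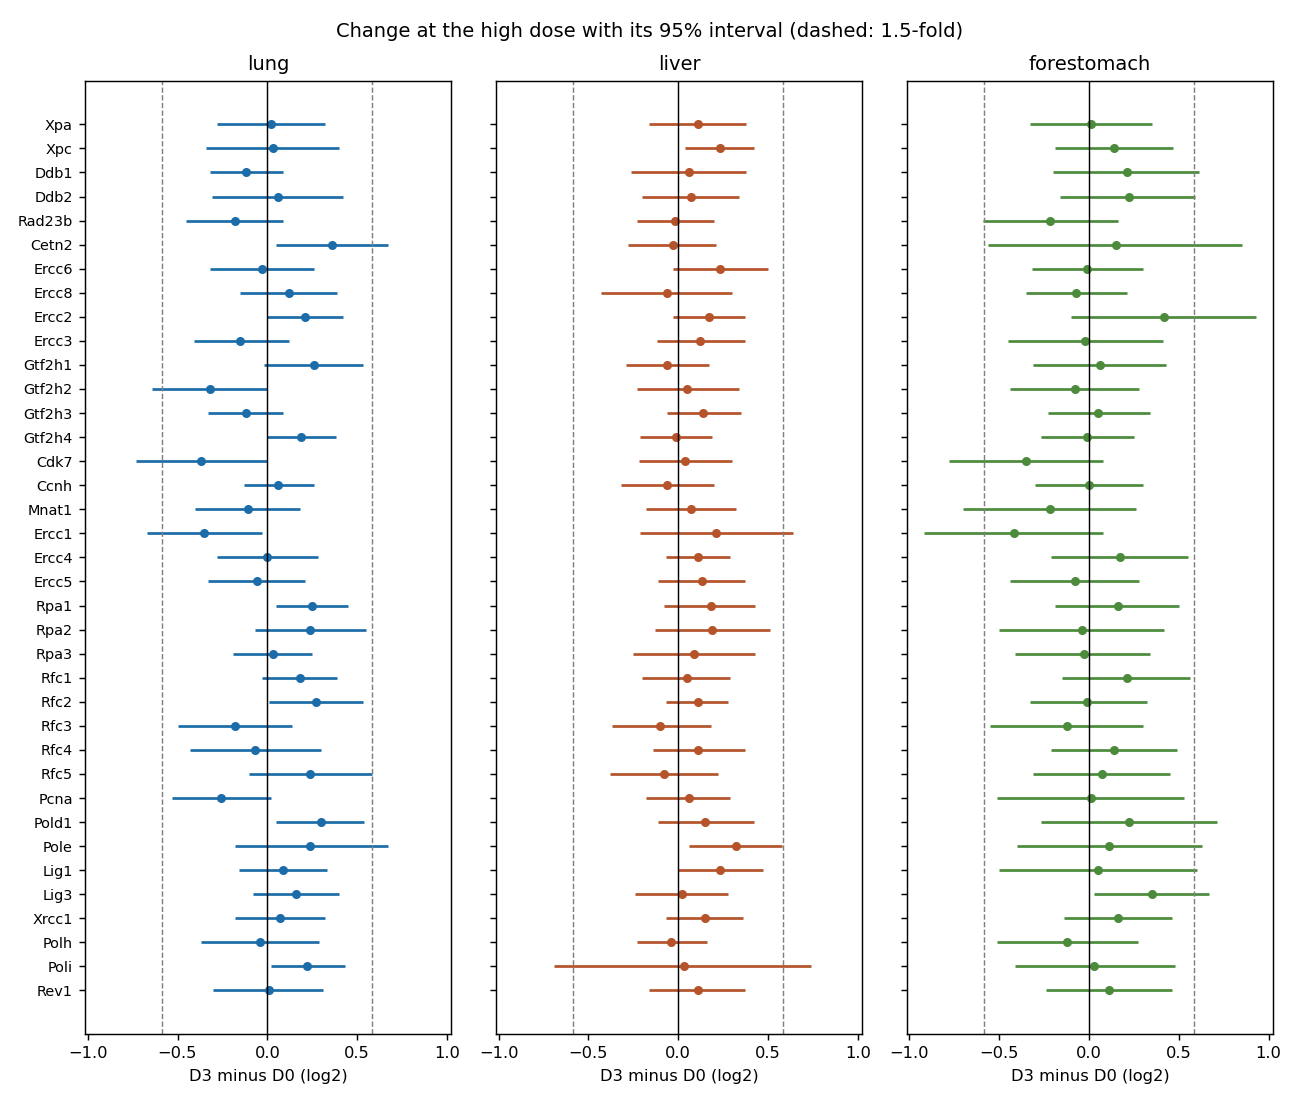
Change from vehicle to D3 in log2 ratio (points) with its 95% interval (lines) for the 37 genes in lung, liver and forestomach; dashed lines mark 1.5-fold. The intervals of 32, 35 and 25 genes lie between the dashed lines, and the forestomach intervals are the widest of the 3 panels on the whole, with a median SE of 0.17 against 0.13 and 0.12.

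Xpc and Ddb2, both of damage recognition, are given on every array. In lung, Xpc stood at 0.84, 1.05 and 0.68 at D1, 1.09, 0.52, 0.70 and 1.30 at D2 and 1.34, 1.09, 1.04 and 0.70 at D3, which overlap the vehicle lungs, with a D3 change of 0.03 ± 0.17. In liver it stood at 0.44 and 0.49, 0.62, 0.75 and 0.66 and 0.64, 0.66, 0.49 and 0.72, and the 3 D2 livers were all above the vehicle livers. The liver changes were 0.28 ± 0.10 at D2 and 0.23 ± 0.09 at D3, with limma adjusted p of 0.35 and 0.577. In forestomach it stood at -0.25, -0.03 and -0.30, 0.02, -0.21, 0.09 and 0.09 and 0.29, -0.13 and 0.03, overlapping the vehicle group, with a D3 change of 0.14 ± 0.15. Ddb2 stood at -0.96, -0.84 and -0.82, -0.64, -1.18, -0.95 and -0.74 and -0.79, -0.84, -0.58 and -0.04 in lung at D1 to D3, at -1.23 and -1.36, -1.28, -1.36 and -1.31 and -1.63, -1.23, -0.96 and -1.24 in liver, and at -1.02, -0.74 and -0.67, -0.83, -0.68, -0.26 and -0.77 and -0.73, -0.80 and -0.74 in forestomach. All dose groups overlapped their vehicle group, and the D3 changes were 0.06 ± 0.17, 0.07 ± 0.13 and 0.22 ± 0.17.

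Xpa stood at 0.10, 0.43 and 0.14, 0.33, 0.29, 0.27 and 0.76 and 0.49, 0.26, 0.74 and 0.27 in lung at D1 to D3, and at 0.58 and 0.62, 0.58, 0.75 and 0.53 and 0.39, 0.72, 0.83 and 0.87 in liver. In forestomach it stood at -0.16, 0.07 and -0.06 at D1, all below the 4 vehicle values, but at 0.43, 0.16, 0.24 and 0.63 and 0.79, 0.20 and 0.58 at D2 and D3, which overlap them. The D1 change was -0.56 ± 0.16 (limma adjusted p = 0.263), the lowest adjusted p of the 37 genes in that comparison. There, 2 genes lay below every vehicle forestomach (Xpa and Ercc5) and 2 above (Rfc5 and Lig1). The share of all probes that did so is not given. In the same comparison all 14 proliferation markers tested had positive changes, with a median of 0.43 and 6 at an unadjusted limma p under 0.05. The 3 D1 forestomachs all held glandular stomach markers, at scores of 5.71 to 6.18, against 0.54, 5.92, 5.93 and 0.84 in the vehicle mice, and the part of either in the Xpa values was not tested.

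Pcna stood at -1.62, -1.55 and -1.65, -1.70, -1.42, -1.36 and -1.67 and -1.88, -1.90, -1.51 and -2.08 in lung, at -3.35 and -3.32, -3.26, -2.89 and -2.90 and -3.26, -3.08, -3.33 and -3.21 in liver, and at -1.52, -1.47 and -1.49, -1.89, -1.62, -1.86 and -1.70 and -2.19, -1.28 and -2.26 in forestomach. Its D3 changes were -0.26 ± 0.13, 0.06 ± 0.11 and 0.01 ± 0.24. Polh stood at -1.00, -0.93 and -0.83, -0.96, -0.83, -1.00 and -1.39 and -1.03, -0.73, -1.13 and -0.74 in lung, at -0.65 and -0.75, -0.93, -0.99 and -1.11 and -1.01, -0.71, -0.94 and -1.01 in liver, and at -0.21, 0.01 and 0.03, -0.25, -0.54, -0.11 and -0.84 and -0.64, -0.52 and -0.29 in forestomach. Its D3 changes were -0.04 ± 0.15 in lung and -0.12 ± 0.18 in forestomach, with limma adjusted p of 0.977 and 1, while in liver the probe was well above background on 0 of 4 vehicle and 0 of 4 D3 arrays, which gives no change to read.

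The lowest trend p in each tissue went to genes of several roles. In lung, Ercc1 stood at -1.39, -1.45, -1.28 and -1.47 at D3 against the vehicle values above, with a trend of -0.38 ± 0.14 per 100 mg/kg-bw/day (limma adjusted p = 0.45). Gtf2h4, at -1.29, -1.20, -1.24 and -1.36 in vehicle lungs, stood at -1.08, -0.95, -1.11 and -1.18 at D3, all above vehicle, with a trend of 0.21 ± 0.08 (limma adjusted p = 0.493). Pold1 stood at -1.99, -1.86, -1.71 and -1.85 at D3, with a trend of 0.26 ± 0.11 (limma adjusted p = 0.505). The D3 lungs were above or below every vehicle lung for 4 and 2 genes, against 2.94% and 2.38% of all probes.

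In liver the lowest trend p went to Xpc, Pole and Ercc6. Pole stood at -2.57, -2.87 and -2.41 at D2 and -2.84, -2.76, -2.47 and -2.74 at D3, both groups above every vehicle liver, with a trend of 0.31 ± 0.13 (limma adjusted p = 0.53). Ercc6 stood at -0.17, -0.07, 0.09 and 0.03 in vehicle and 0.31, 0.26, -0.16 and 0.41 in D3 livers, with a trend of 0.22 ± 0.11 (limma adjusted p = 0.593). At D2, 7 genes lay above every vehicle liver (Xpc, Gtf2h3, Cdk7, Ercc4, Rfc2, Pole and Lig1) and 0 below, against 4.51% and 4.76% of all probes. Lig1 there stood at -3.72, -3.48 and -3.42, a change of 0.40 ± 0.12 (limma adjusted p = 0.272), and at -3.91, -3.64, -3.67 and -3.61 at D3, a change of 0.23 ± 0.11. In the same D2 livers 7 of the 11 proliferation markers tested had an unadjusted limma p under 0.05, all higher, with a median of 0.41, and at D3 their median was 0.04; their part in the levels of Lig1 and Pole was not tested.

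In forestomach, Lig3 stood at 0.18, 0.31, 0.05 and -0.31 in vehicle and 0.44, 0.30 and 0.49 in D3 mice, with a trend of 0.37 ± 0.17, while its second probe gave -0.05. Cdk7 stood at -0.47, -0.87, -1.40 and -0.72 and -1.31, -1.14 and -1.19, with a trend of -0.37 ± 0.18. The Cdk7 values of -0.47 and -1.19 came from arrays where its main probe was not well above background. Ercc2 stood at -1.28, -1.36, -0.79 and -0.42 and -0.51, -0.38 and -0.75, with a trend of 0.46 ± 0.23. All 3 had a limma adjusted p of 1, and in none did the groups separate.

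The loader and polymerase genes that stood apart between tissues showed no called change with dose either. Rfc4 in forestomach stood at -2.06, -1.86 and -1.66 at D1, -1.93, -2.09, -2.37 and -1.87 at D2 and -1.84, -1.73 and -1.80 at D3. Rfc5 in forestomach stood at -1.69, -1.63 and -1.66, -2.00, -1.83, -1.92 and -1.98 and -2.41, -1.57 and -2.13 at the same doses, the D1 values all above vehicle with a change of 0.45 ± 0.18 (limma adjusted p = 0.357). These D1 forestomachs are those whose higher proliferation markers and glandular scores are given with Xpa, and the part of either in the Rfc5 values was not tested. In lung, Rfc4 stood at -3.12, -2.81, -2.67 and -2.94 and Rfc5 at -3.01, -2.69, -2.68 and -2.59 at D3, both overlapping vehicle.

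**Figure D4:**
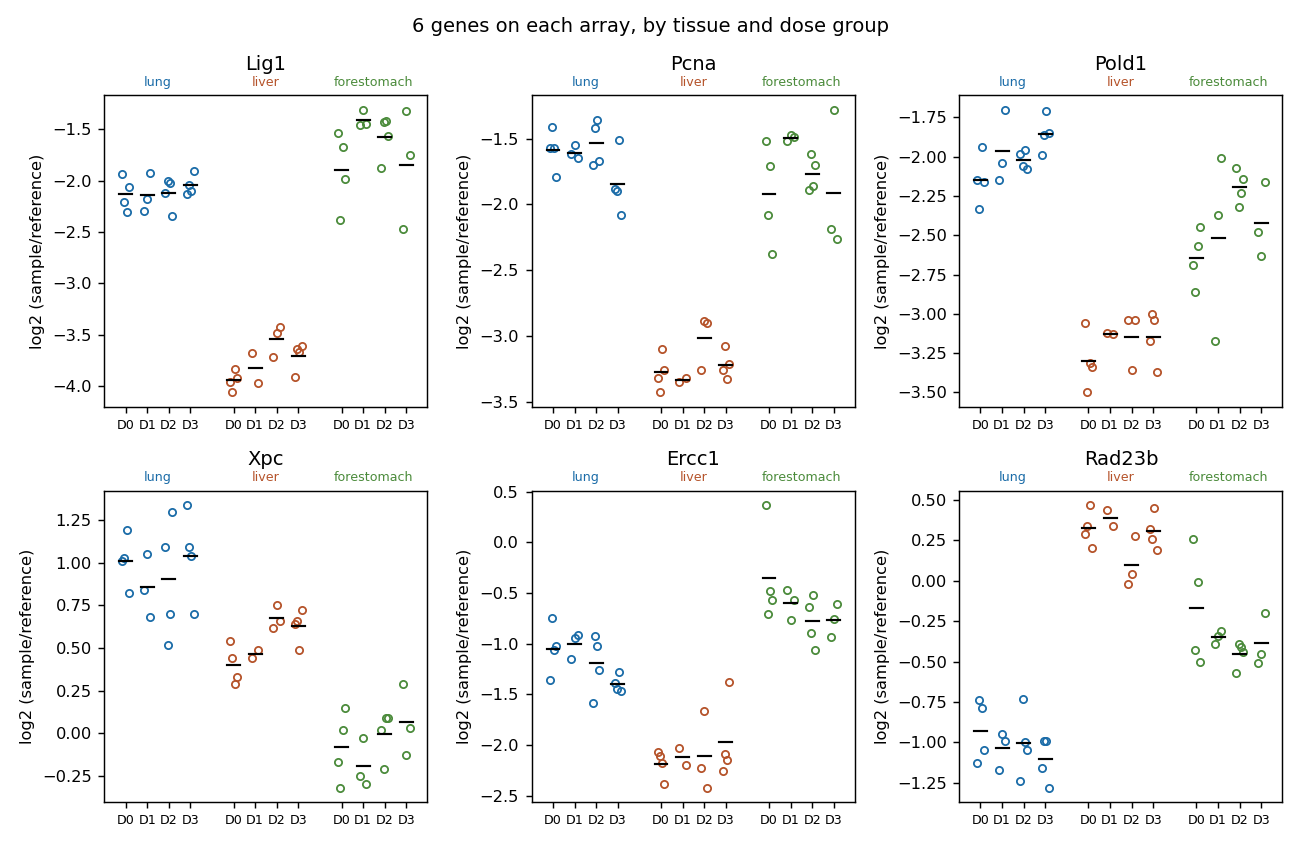
Log2 ratio of tissue to reference on every array (circles) with the group mean (bars) for 6 genes, by tissue and dose group from D0 to D3. Lig1 lay at -4.06 to -3.42 on all liver arrays and at -2.47 or higher on all others.

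The other 26 genes of the pathway, a list that holds further subunits of TFIIH, the ubiquitin ligases and polymerases, gave the same counts with dose: 0 of the 26, 25 and 23 tested in lung, liver and forestomach were called at any dose. Between vehicle groups, 16 of the 26 were called for lung minus liver (6 higher, 10 lower), 7 for lung minus forestomach (2 higher, 5 lower) and 9 for liver minus forestomach (3 higher, 6 lower), beside the 40.8%, 33.5% and 37.5% of all probes called in these pairs. Poln, a bypass-type polymerase, had a probe well above background on 4 of 4 vehicle livers, 1 of 4 lungs and 0 of 4 forestomachs. Mad2l2, a subunit of polymerase ζ, was higher in liver than in lung (lung minus liver -1.00 ± 0.16) and than in forestomach (1.84 ± 0.16), and Hmgn1, a nucleosome-binding protein of transcription-coupled repair, was lower in liver than in both (1.64 ± 0.16 and -1.46 ± 0.16).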

How the data were processed

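RNA levels in 3 mouse tissues were read on Agilent 2-colour arrays. Per the file headers, the authors read median spot intensity with Agilent Feature Extraction 10.7.3.1 (lung, forestomach) or 11.0.1.1 (liver). The deposited scanner files also hold a log10 ratio, background-subtracted and dye-normalised by that software, and the authors' value table holds processed log2 ratios. The lung and forestomach columns of that table correlated with the scanner ratios probe by probe (lung 0.997 to 0.999), but the liver columns did not (-0.00301 to 0.000338, although the sorted values did), so the table was used as an alternative for lung and forestomach only.

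From the intensities, log2(red/green) was taken without background subtraction and loess-normalised within each array (limma 3.58.1, R 4.3.3), and spots of a probe were averaged. Probes were named through RefSeq accessions (49% got a symbol), and a gene was read from its probe with the brightest mean sample channel. Probes were tested if well above background on at least 3 lung, 2 liver or 3 forestomach arrays, which kept 32701, 30468 and 25321; a tissue pair used probes kept in either. limma, in place of the permutation F test of the study's methods, was fitted over the 4 dose groups of a tissue, or over all 42 arrays for tissue pairs, with Benjamini-Hochberg adjustment; scripts were tested on simulated data. The number of arrays limits the precision. Replicates were separate mice. The same animals gave the tissues, so mouse numbers pair them; the correlation of their deviations had medians of 0.07 (lung and liver), 0.15 (lung and forestomach) and 0.03 (liver and forestomach). Alternatives were other ratios, filters, thresholds, probes, blocks and left-out arrays. Liver slides differed from those of the other tissues. The members and lists were chosen with earlier results of these data known. Named genes were Xpa, Xpc, Ddb2, Polh and Pcna for their role, the 3 lowest trend p in each tissue, and the 4 widest vehicle differences in each pair. Array values of the role genes are printed throughout; those of the others are printed for the vehicle mice or the tissue that named them, or plotted. Sequences came from RefSeq. Python 3 drew the figures.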

Additional observations from a re-analysis of the deposited data

Results flagged for a closer look

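Among 119 groups of 4 arrays of the 17 named genes, 4 held an array whose gap to the nearest other was large against the range of its group by Dixon's test, a rule by which chance alone picks about 1 group in 20. Xpa in D2 lung stood at 0.76 in mouse 15, where the others lay between 0.27 and 0.33. Rfc5 in D2 lung stood at -2.28 in mouse 12, where the others lay between -3.05 and -3.00; this lung also had a skeletal muscle score of 4.63, a squamous score of 3.00 (-0.24 or less on the other lungs) and a fat score of 3.24, and their part in the value was not tested. Liver of vehicle mouse 2 stood apart for Cdk7, at -0.77 against -0.96 to -0.95, and for Rfc5, at -2.50 against -2.27 to -2.24.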

How the results depend on the processing

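No alternative called a gene of the group at any dose, in any trend or in any contrast of the high-dose change between tissues. Between vehicle lung and liver the count stayed within 1.5 times of 17. Between lung and forestomach it was 11, with 18 when no fold limit was set and a range of 7 to 12 when single arrays were left out, 7 without forestomach of vehicle mouse 1. Between liver and forestomach it was 7, with 12 from the log ratio of the scanner software, 21 with no fold limit, and 11 without the forestomach arrays that hold glandular markers, an alternative chosen after seeing the data. With the replicate block (mouse as a block), which pairs the tissues of an animal, the counts were 17, 11 and 7, and it changed no other call. Small changes that were not called turned sign in some settings; the cause was not tested. From the scanner software's ratio, the D3 change of Xpc in lung was -0.02 and that of Polh in liver 0.26, on a probe not well above background there. The D3 change of Xpa in forestomach was -0.01 from the value table and -0.01 with the glandular score as a covariate. That of Pcna in forestomach was -0.06 in the fit that blocks on slide, and -0.27 without the glandular arrays. Xpa for liver minus forestomach was -0.08 with quantile normalisation of both channels, also chosen after seeing the data. Leaving out single arrays moved the D3 change in lung from -0.08 to 0.08 for Xpa, from -0.07 to 0.14 for Xpc, from -0.12 to 0.15 for Ddb2 and from -0.18 to 0.05 for Polh; in liver from -0.03 to 0.20 for Ddb2; and in forestomach from -0.12 to 0.17 for Xpa and from -0.30 to 0.19 for Pcna. Polh for lung minus liver, on the same probe, ran from -0.07 to 0.15, and neither Polh value with liver is read as a change. The called Xpc difference of lung and liver ran from 0.55 to 0.68 and fell under the fold limit without vehicle lung 3 or vehicle liver 3, and with quantile normalisation (0.58), as did Ddb2 (0.58). The value table was not run for liver, and scaling by Aquantile leaves the ratios as they are.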
